A study of Mus musculus with 50 samples.

Results

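The genes described here are 10 components and targets of cAMP signalling that are abundant in the striatum: Ppp1r1b, which encodes DARPP-32, and Ppp1r1a, Arpp21, Arpp19, Gnal, Gng7, Pde10a, Pde1b, Pde7b and Prkar2b. They were chosen by symbol, all 10 were found in both count tables among 24552 genes, and all 10 passed the filter on low counts in every model. RNA was sequenced from the nucleus accumbens (NAc) of male C57BL/6 mice that carry RiboTag (RT), a Cre-dependent HA tag on the ribosomal protein Rpl22, so that antibody against HA pulls down ribosomes, with their mRNA, from the cells that express Cre. The immunoprecipitates (IPs) came from RT; D1-Cre mice (13 libraries of D1-IPs: 4 Con, 4 Res and 5 Sus) and from RT; D2-Cre mice (15 libraries of D2-IPs: 5 of each), and 18 inputs of whole tissue lysate (3 for each line and stress group) were made beside them. Con animals were housed with mice of their own strain, while the others met an aggressive CD1 male daily in chronic social defeat stress and were then classed as resilient (Res) or susceptible (Sus) by social interaction. These mice were 8 to 12 weeks old. A further 4 D1-IPs labelled Sirt1-KO came from unstressed male RT; Sirt1-floxed; D1-Cre mice of the same strain, whose age the labels do not give, and were compared with the 4 D1 Con libraries, which carry no floxed Sirt1. Every library pooled the NAc of 2 mice, both Cre drivers are BAC transgenes, and the labels name no cohort, so cohort could not be entered in any model.

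Medium spiny neurons (MSNs) make up most neurons of the striatum and come in a D1 receptor and a D2 receptor type. In D1-MSNs dopamine acts through the G protein alpha subunit olf to raise cAMP. In D2-MSNs adenosine receptors use the same subunit, and D2 receptors oppose it. cAMP releases the catalytic subunits of protein kinase A (PKA) from their regulatory subunits, PKA phosphorylates DARPP-32 and the ARPP proteins, and phosphodiesterases break cAMP down. Phosphorylated DARPP-32 inhibits protein phosphatase 1 (PP1), which prolongs phosphorylation of other PKA targets, and the protein has long served as a marker of MSNs.

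Levels are given as CPM, counts scaled to a library of 1000000 by edgeR's trimmed mean of M values (TMM), and differences as log2 fold changes with standard errors (SE). A gene was called where the adjusted p of edgeR's quasi-likelihood test, corrected over all genes tested in that comparison, was below 0.05. The 46 IP and input libraries held between 18384265 and 31009626 counts. The NAc label and the cell types were checked against marker genes. Summed over 5 markers each, D1-MSN markers ran from 1141 to 1603 CPM in D1-IPs against 400 to 663 in D2-IPs, and D2-MSN markers from 5810 to 8166 CPM in D2-IPs against 2115 to 3552 in D1-IPs. In D1-IPs the D2-MSN markers were thus above their level in the D1-inputs (775 to 1333 CPM). The 5 markers of cortical excitatory neurons (Slc17a7, Tbr1, Neurod6, Emx1 and Neurod2) summed to 395 to 1419 CPM in D1-IPs, 21.1 to 309 in D2-IPs and 68.9 to 1074 in inputs, and none of them was at 0 in any D1-IP. Since this sum moved with several results below, its values are given beside them.

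Both inhibitors of PP1 among the members are switched on when PKA phosphorylates a threonine that follows a run of arginines. The coding sequence around that site shows how alike they are, since their levels differ so much. The lines below give 90 coding bases of each, read 5′ to 3′ from the GENCODE M21 transcripts Ppp1r1b-201 (coding bases 25 to 114, threonine codon 34) and Ppp1r1a-201 (coding bases 28 to 117, threonine codon 35). Capitals mark the codons of the 4 arginines, the proline and the threonine.
Ppp1r1b: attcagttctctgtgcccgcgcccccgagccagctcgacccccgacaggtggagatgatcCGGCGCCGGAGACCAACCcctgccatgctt
Ppp1r1a: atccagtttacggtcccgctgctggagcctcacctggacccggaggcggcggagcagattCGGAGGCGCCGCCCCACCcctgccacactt
The stretches shared 55 of 90 bases (61.1%), and 12 of the 18 bases in capitals.

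Promoters were compared because most members moved together between D1-IPs and D2-IPs. RefSeq windows on GRCm38.p6 (250 bases before to 50 after a start) were matched for 7 members, with 21 starts in all. No window of Ppp1r1b, Ppp1r1a or Gnal was among them, and Arpp21 had 9 of the 21. They were searched on both strands for the cAMP response element TGACGTCA, for its shorter core TGACG that any full element contains, for the box CCAAT, for the GC box GGGCGG and for the box TATAAA. TGACGTCA was in 0 of the 21 windows against 1.79% of 32851 promoters of the same length. TGACG was in 4 of 21 (20.8% of all promoters), CCAAT in 8 (37.4%), GGGCGG in 6 (35.7%) and TATAAA in 1 (13.6%). A match is a description of the sequence. Most matches of TGACG and of CCAAT were in windows of Arpp21, and several of these windows overlap one another. The windows with the most matches are shown for Gng7 (chr10:81014876-81015175, minus strand, with 5 GGGCGG and 2 CCAAT), a member that was lower in D1-IPs, and for Prkar2b (chr12:32061228-32061527, minus strand, with 4 GGGCGG), a member that was not called. Capitals mark the matches on either strand.
Gng7: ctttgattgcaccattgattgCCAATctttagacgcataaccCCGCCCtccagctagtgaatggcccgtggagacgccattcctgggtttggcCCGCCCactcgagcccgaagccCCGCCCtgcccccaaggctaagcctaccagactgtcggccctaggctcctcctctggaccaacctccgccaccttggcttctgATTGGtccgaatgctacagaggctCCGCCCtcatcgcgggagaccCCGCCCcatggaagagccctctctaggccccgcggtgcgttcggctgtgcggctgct
Prkar2b: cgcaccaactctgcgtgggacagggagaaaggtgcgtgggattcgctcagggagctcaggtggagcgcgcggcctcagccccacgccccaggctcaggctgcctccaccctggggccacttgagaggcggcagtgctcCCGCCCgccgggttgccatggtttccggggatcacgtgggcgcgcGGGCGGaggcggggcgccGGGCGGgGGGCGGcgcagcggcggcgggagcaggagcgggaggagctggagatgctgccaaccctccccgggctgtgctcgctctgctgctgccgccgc
Both windows were picked for their number of matches, so their GC boxes do not describe the members as a set. Over all 21 windows GGGCGG was in 6, beside 35.7% of all promoters.

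Per kilobase of exon, Ppp1r1b was by far the most abundant member. Its mean was 568 ± 73.8 CPM per kb (SD, n = 13) in D1-IPs and 713 ± 61.9 (SD, n = 15) in D2-IPs, and its lowest library lay above the highest library of every other member. The next pair was Pde1b, a calmodulin-activated phosphodiesterase, at 265 ± 29.0 and 312 ± 18.1 CPM per kb (SD, n = 13 and 15), and Gng7, the G protein gamma subunit that partners olf, at 239 ± 26.6 and 315 ± 23.2. The ranges of these genes overlapped in both lines. Below them came Gnal, which encodes the alpha subunit olf (115 and 132 CPM per kb), Pde10a (90.7 and 121), Arpp19 (81.7 and 106), Arpp21 (70.5 and 86.7) and Prkar2b (68.8 and 74.2), and within this run each gene overlapped the next one in both lines. Ppp1r1a, at 45.3 ± 3.24 CPM per kb in D1-IPs, and Pde7b, at 27.8 ± 2.65, closed the order without overlap of their D1-IP libraries, while in D2-IPs the lowest value of Ppp1r1a (39.9) fell just under the highest of Pde7b (40.3). DARPP-32 and its close relative Ppp1r1a therefore stood near opposite ends of the same order. The length used joined all annotated exons of a gene, from 1306 bases for Ppp1r1a to 17428 for Arpp21, and the order depends on it. In CPM alone, D1-IPs of Ppp1r1b (1334 to 2229) overlapped those of Pde1b (1178 to 1847). Those of Pde7b (276 to 410) lay above those of Ppp1r1a (51.6 to 65.1).

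**Figure D1:**
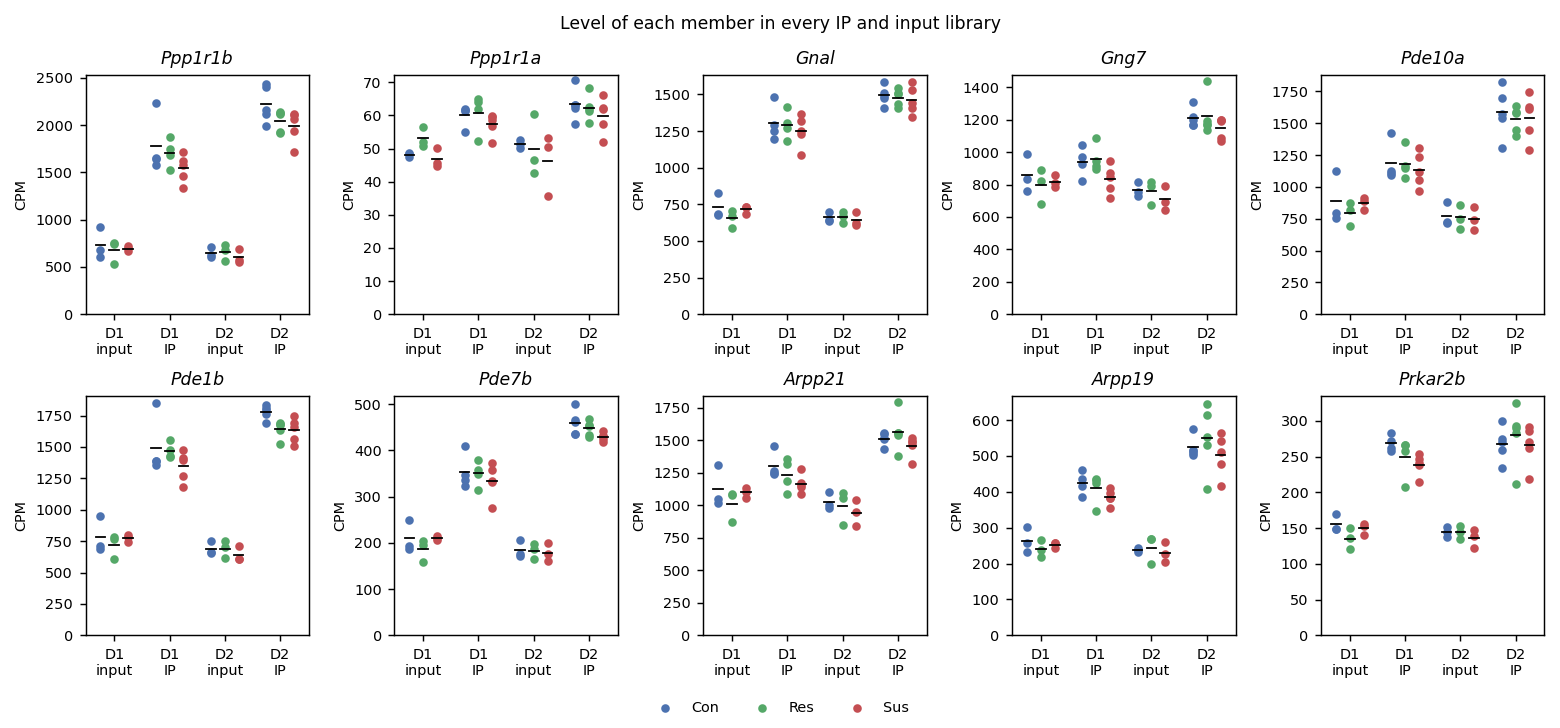
Level of the 10 members in CPM (y axes, from 0) in each of the 46 IP and input libraries, by line and fraction (x axes); points are libraries coloured by stress group and bars are group means. In D2-IPs Pde7b lay between 418 and 501 CPM, above all 13 D1-IPs (276 to 410 CPM), and Ppp1r1b in the inputs stayed between 528 and 921 CPM.

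Pulling down tagged ribosomes enriched nearly the whole set. Against the inputs of the same line, 9 of 10 members were higher in D1-IPs and all 10 in D2-IPs, and 0 were lower in either. Such calls were common, since 39.2% of 15404 genes tested were higher and 42.7% lower in D1-IPs, and 37.8% were higher and 44.9% lower in D2-IPs. The median log2 fold change of the members was 0.70 in the D1 line and 1.05 in the D2 line, beside -0.04 and -0.08 over all genes tested. The D1 and D2 comparisons use separate IPs and inputs.

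Ppp1r1b (chr11:98348404-98357796, plus strand, mm10) had the largest enrichment of the members. It ranged from 1334 to 2229 CPM with a median of 1645 in D1-IPs, and from 528 to 921 with a median of 697 in D1-inputs. In the D2 line it ranged from 1714 to 2440 CPM with a median of 2115 in IPs, and from 557 to 736 with a median of 622 in inputs. IPs and inputs did not overlap in either line. Its log2 fold change was 1.22 ± 0.0716 (SE), or 2.33-fold, in D1-IPs (adjusted p = 4.39e-19) and 1.67 ± 0.0717, or 3.18-fold, in D2-IPs (adjusted p = 1.05e-23). Its relative Ppp1r1a (chr15:103530279-103538003, minus strand), which encodes the PP1 inhibitor-1, was only 1.17-fold and 1.22-fold higher in IPs, with overlap between IPs and inputs in both lines.

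Among the ARPPs, Arpp19 (chr9:75037614-75060313, plus strand), whose product inhibits protein phosphatase 2A once phosphorylated, was 1.57-fold higher in D1-IPs and 2.15-fold in D2-IPs. Arpp21 (chr9:112065091-112235938, minus strand), which encodes an RNA-binding protein also known as the regulator of calmodulin signalling, was enriched little, at 1.12-fold and 1.49-fold. The call of Arpp21 in D1-IPs was lost when the genes were limited to those averaging 50 counts or more (0.07, adjusted p = 0.178). An intron of Arpp21 carries Mir128-2 (chr9:112118636-112118711, same strand), one of the loci that make miR-128-3p. The mature miRNA is printed with its seed, bases 2 to 8, in capitals.
miR-128-3p: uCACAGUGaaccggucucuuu
These poly-A libraries held only 0 to 3 counts on Mir128-2 in any of the 46 libraries, so the miRNA itself was not measured.

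For the G protein subunits, Gnal, on chromosome 18, was 1.79-fold higher in D1-IPs and 2.19-fold in D2-IPs. Gnal shares bases with Chmp1b on its own strand and with Mppe1 on the other, and how reads in such bases were counted is not given in the sources used here. Gng7 (chr10:80948624-81014945, minus strand) was the exception in the D1 line. It ranged from 716 to 1084 CPM in D1-IPs and from 678 to 988 in D1-inputs, which overlapped, with a log2 fold change of 0.11 ± 0.0546 (adjusted p = 0.0714, 95% interval -0.0044 to 0.22), and it was called there when every gene with a count was kept (0.14, adjusted p = 0.021) or without any 1 of 7 single libraries. In the D2 line Gng7 was 1.56-fold higher in IPs (adjusted p = 3.41e-14), with every D2-IP (1068 to 1439 CPM) above every D2-input (643 to 818 CPM).

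Of the phosphodiesterases, Pde1b (chr15:103503034-103530052, plus strand, ending 226 bases from the end of Ppp1r1a) was 1.84-fold and 2.43-fold higher in D1-IPs and D2-IPs. Pde7b (chr10:20398004-20725078, minus strand), which is specific for cAMP, was 1.67-fold and 2.38-fold higher. Pde10a (chr17:8525372-8986648, plus strand), which breaks down both cAMP and cGMP, was 1.34-fold and 1.99-fold higher. Prkar2b (chr12:31958476-32061296, minus strand), a regulatory subunit of PKA, was 1.68-fold and 1.87-fold higher. Without overlap, 6 members lay above all inputs of their line in D1-IPs, as 25.5% of genes tested did, and 9 in D2-IPs, as 23.5% did.

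Enrichment over input was smaller in the D1 line. The difference between the lines (the log2 fold change in D1 minus that in D2) was called for 8 of 10 members, each negative, against 11.8% of 15404 genes. It was largest for Pde10a at -0.57 ± 0.0993 (adjusted p = 2.94e-05) and Gng7 at -0.54 ± 0.0761 (adjusted p = 9.23e-07), and it was -0.45 ± 0.0963 for Ppp1r1b (adjusted p = 0.000426). Ppp1r1a (-0.06, 95% interval -0.22 to 0.10) and Prkar2b (-0.16, 95% interval -0.32 to 0.0041) were not called.

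**Figure D2:**
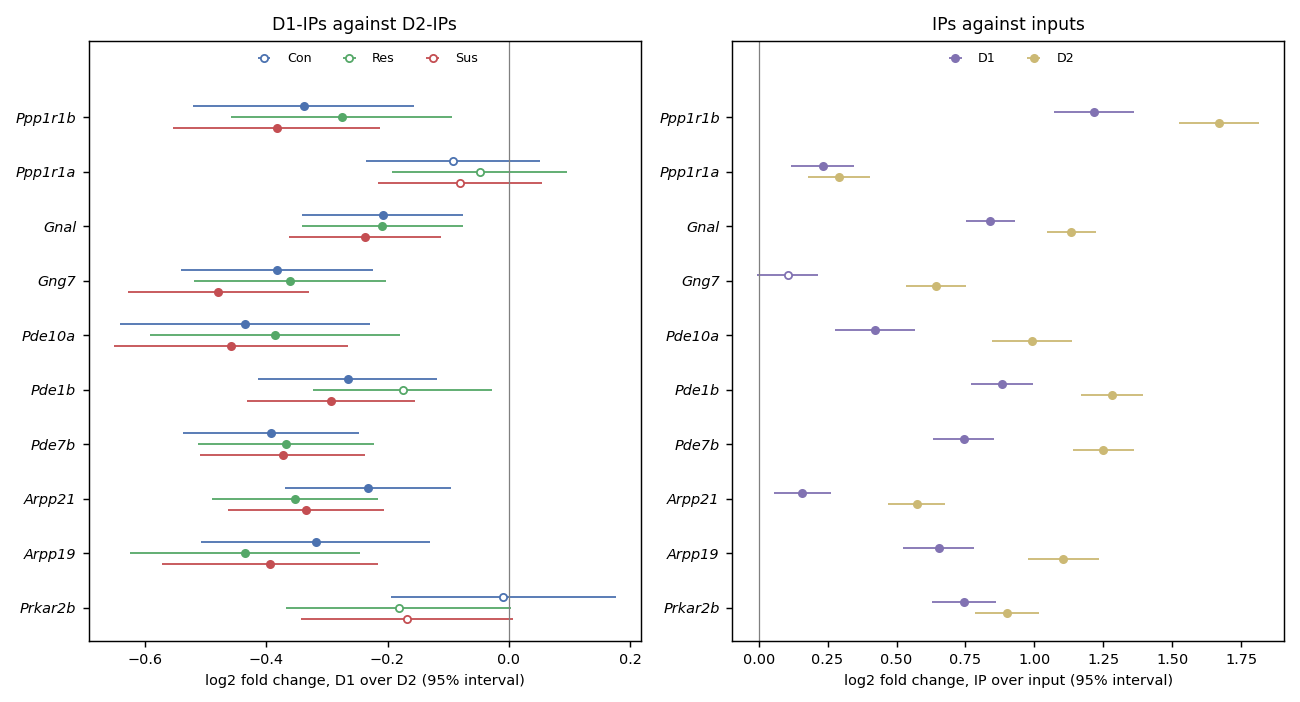
log2 fold changes with 95% intervals (x axes) of the 10 members between D1-IPs and D2-IPs in each stress group (left) and between IPs and inputs in each line (right); filled points passed an adjusted p of 0.05 and open points did not. All 10 members lie below 0 in the left panel in every group, with Prkar2b in Con nearest to it at -0.01, and Ppp1r1b in D2-IPs reaches 1.67 in the right panel.

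The comparison of D1-IPs with D2-IPs asks how the MSN types differ in these genes. Most members were lower in D1-IPs, by modest amounts: averaged over the 3 stress groups, 8 of 10 were called lower and 0 higher, with folds of 1.16 to 1.34 among those called, and none passed a fold of 1.5. Of 14224 genes tested, 21.3% were called lower and 19.6% higher. The members' median was -0.32, beside -0.02 over all genes. In bulk samples such as these, fewer cells of a type and less RNA per cell cannot be told apart.

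Ppp1r1b was 1.26-fold lower in D1-IPs (log2 fold change -0.33 ± 0.0503, adjusted p = 4.5e-06). In Con it stood at 2229, 1645, 1578 and 1650 CPM in D1-IPs and at 2402, 2121, 1989, 2160 and 2440 in D2-IPs. In Res it stood at 1527, 1680, 1747 and 1877 against 2132, 2116, 2141, 1918 and 1932, and in Sus at 1619, 1582, 1334, 1458 and 1713 against 1714, 1941, 2115, 2066 and 2110. The lines did not overlap in Res or Sus, whereas in Con the first D1 library lay among the D2-IPs. Ppp1r1a, at 51.6 to 65.1 CPM in D1-IPs and 52.1 to 70.6 in D2-IPs, overlapped almost throughout and was not called (-0.07, 95% interval -0.16 to 0.0078, adjusted p = 0.142).

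Pde7b was the member with the cleanest separation. Every D1-IP (276 to 410 CPM, median 347) lay below every D2-IP (418 to 501 CPM, median 435), as was so for 0.801% of genes, and its log2 fold change was -0.38 ± 0.0401 (adjusted p = 1.13e-08). Gng7 came next, with a median of 912 CPM in D1-IPs and 1192 in D2-IPs, and only the highest D1-IP (1084 CPM, in Res) rose above the lowest D2-IP (1068 CPM, in Sus). Its log2 fold change was -0.41 ± 0.0439 (adjusted p = 1.46e-08). Its partner Gnal was lower by less, at -0.22 ± 0.0367 (adjusted p = 2.08e-05), so the alpha and gamma subunits differed in the same direction.

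Pde10a had the largest fold, 1.34 (log2 fold change -0.43 ± 0.0569, adjusted p = 6.2e-07), with 968 to 1425 CPM in D1-IPs and 1291 to 1824 in D2-IPs. Pde1b was lower at -0.24 ± 0.0407 (adjusted p = 1.77e-05), although D1 Con 1, at 1847 CPM, lay above every D2-IP. Of the ARPPs, Arpp19 was at -0.38 ± 0.0523 (adjusted p = 9.03e-07) and Arpp21 at -0.31 ± 0.0378 (adjusted p = 1.64e-07). Prkar2b, at 207 to 282 CPM in D1-IPs and 212 to 325 in D2-IPs, was not called (-0.12, 95% interval -0.22 to -0.01, adjusted p = 0.0634). Whether the differences of Ppp1r1a and Prkar2b are smaller than those of the other members was not tested.

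The same direction was seen inside each stress group. In Con, 8 members were called lower (6.26% of genes were), in Res 7 (7.85%) and in Sus 8 (8.07%), and all 10 point estimates were below 0 in each group. Pde1b was the member lost in Res (-0.18, adjusted p = 0.0924), and Ppp1r1a and Prkar2b were called in no group. The calls in Con leaned on single libraries: 3 members were called without D1 Con 2 (1171 genes in all, against 1990 with every library), 4 without D1 Con 3 (1433 genes), 4 without D1 Con 4 (1455 genes) and 8 without D1 Con 1 (2308 genes). The sizes moved less, with a members' median of -0.26, -0.26, -0.25 and -0.37 in these fits against -0.29 with every library. In Res, Ppp1r1b lost its call without any 1 of D1 Res 1, 2 or 3 or D2 Res 1, 2 or 3 (adjusted p from 0.0527 to 0.134). Gnal lost its call in Res without D1 Res 1, D1 Res 3 or D2 Res 2 (adjusted p from 0.0593 to 0.123). In Sus, 8 members were called whichever library was left out. D1-IPs lay below D2-IPs without overlap for 3 members in Con (5.51% of genes), 5 in Res (6.61%) and 6 in Sus (4.34%).

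Markers of other cells moved with this contrast. All 5 cortical markers were called higher in D1-IPs (median log2 fold change 2.15), and 4 of 5 markers of cholinergic interneurons were called lower (medians of the sum 26.6 CPM in D1-IPs and 128 in D2-IPs). Of the glial and other lists, 6 of 6 astrocyte and 4 of 6 oligodendrocyte markers were called higher in D1-IPs, 4 of 6 microglial and 1 of 4 endothelial markers lower, and of 6 markers of GABA interneurons 2 were higher and 2 lower. Astrocyte, oligodendrocyte, microglial and endothelial sums in the IPs all lay below those of every input. With the log of the cortical sum as a covariate, which was added after seeing the data, 9 members were called lower over the 3 groups (2700 genes in all against 5805 without it). Ppp1r1b was then at -0.37 (adjusted p = 0.00346), Gnal at -0.20 (adjusted p = 0.0303) and Arpp19 at -0.46 (adjusted p = 0.000513), and the 8 members called without the covariate lay between -0.20 and -0.47 with it. The ninth was Ppp1r1a, which went from -0.07 to -0.20 (adjusted p = 0.0306), while Prkar2b was not called (-0.14, adjusted p = 0.294). Within single stress groups the covariate left 6 members called in Con (1297 genes in all against 1990), 5 in Res (1540 against 2487) and 6 in Sus (1412 against 2497). The calls lost were Gnal in all 3 groups (-0.19, -0.19 and -0.22), Pde1b in Con and Sus (-0.24 and -0.27) and Ppp1r1b in Res (-0.31). The cortical sum did not overlap between the lines (395 to 1419 CPM in D1-IPs, 21.1 to 309 in D2-IPs). These fits held 1 slope for both lines. Members' r with the sum lay between -0.87 and 0.06 in D1-IPs and between 0.04 and 0.55 in D2-IPs. Line and the sum therefore cannot be told apart in these fits. The part of the cholinergic and glial markers was not tested.

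The inputs gave no counterpart of these differences. Between the inputs of the D1 and D2 lines (9 each), 0 members and 0.0202% of 14820 genes (3 genes by edgeR and 14 by DESeq2, 770 at an unadjusted p below 0.05) were called. The members leaned the other way: 9 of 10 point estimates were above 0, with a median of 0.13, and 3 members, Gng7 (0.14, 95% interval 0.02 to 0.27), Pde1b (0.17, 95% interval 0.03 to 0.31) and Pde7b (0.14, 95% interval 0.0089 to 0.28), had a higher estimate in the D1 line at an unadjusted p below 0.05, as 3% of genes did. None passed the adjustment (adjusted p from 0.941 to 0.946). Ppp1r1b, for example, ranged from 528 to 921 CPM in D1-inputs and from 557 to 736 in D2-inputs.

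Stress comparisons within a line ask whether susceptible or resilient animals differ from controls. No member was called in any of them. In D1-IPs the share of genes called was 0% for Sus against Con, 0.00703% (1 gene) for Res against Con and 0% for Sus against Res, and in D2-IPs it was 0%, 0% and 0%. The edgeR test gave 759, 300 and 601 genes at an unadjusted p below 0.05 in D1-IPs and 523, 430 and 236 in D2-IPs, and DESeq2 called 0, 1 and 0 genes in D1-IPs and 0, 0 and 0 in D2-IPs, with 0 members in each.

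In D1-IPs all 10 members had point estimates below 0 in Sus against Con, with a median of -0.14 (-0.0004 over all genes). Ppp1r1b (-0.20, 95% interval -0.38 to -0.02), Gng7 (-0.17, 95% interval -0.32 to -0.0095) and Arpp21 (-0.15, 95% interval -0.29 to -0.02) had an unadjusted p below 0.05 in this direction, or 3 of 10 members against 2.84% of genes. Each had an adjusted p of 0.846. The values of Ppp1r1b listed above show what this rests on. The Con library at 2229 CPM and the Sus library at 1334 were the extremes of all D1-IPs, and the other Con and Sus libraries spanned 1458 to 1713 CPM. Without D1 Con 1 the log2 fold change of Ppp1r1b was -0.07, that of Gng7 -0.11 and that of Arpp21 -0.09 (adjusted p = 0.993 for each). Without D1 Sus 3 they were -0.15, -0.12 and -0.12 (adjusted p = 0.737, 0.749 and 0.736), and none of the 3 was below an unadjusted p of 0.05 without either library.

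These libraries were also the extremes of the cortical marker sum. D1 Con 1 held 395 CPM, the least of the D1-IPs, and D1 Sus 3 held 1419, the most, while the other 11 lay between them. D1 Con 1 had the highest level of Ppp1r1b, Gnal, Pde10a, Pde1b, Pde7b, Arpp21 and Arpp19 among the D1-IPs. D1 Sus 3 had the lowest level of the same genes other than Arpp19, and of Gng7. With the log2 sum as a covariate in the fit, an alternative added after the data were seen, the members' median for Sus against Con in D1-IPs was again -0.14 and 0 members were called. That fit held 1 slope for both lines. Members' r with the sum lay between -0.87 and 0.06 in D1-IPs and between 0.04 and 0.55 in D2-IPs. The fit therefore does not adjust for the relation within D1-IPs alone.

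The other stress comparisons had fewer members below that unadjusted p. In D1-IPs Gng7 had a log2 fold change of -0.20 for Sus against Res (95% interval -0.36 to -0.05, adjusted p = 0.999). It was the 1 member with an unadjusted p below 0.05 there, against 2.3% of genes. In Res against Con 0 members were below that p in this direction (1.1% of genes). In D2-IPs all 10 estimates were below 0 in Sus against Con, with a median of -0.06, and 0 members passed the unadjusted threshold there (1.6% of genes), in Res against Con (1.46%) or in Sus against Res (0.71%). Ppp1r1b in D2-IPs was at -0.15 (95% interval -0.32 to 0.02) for Sus against Con. Over the 6 comparisons, no 95% interval of a member reached below -0.38 or above 0.25, which is what these libraries allow for the size of a stress difference.

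**Figure D3:**
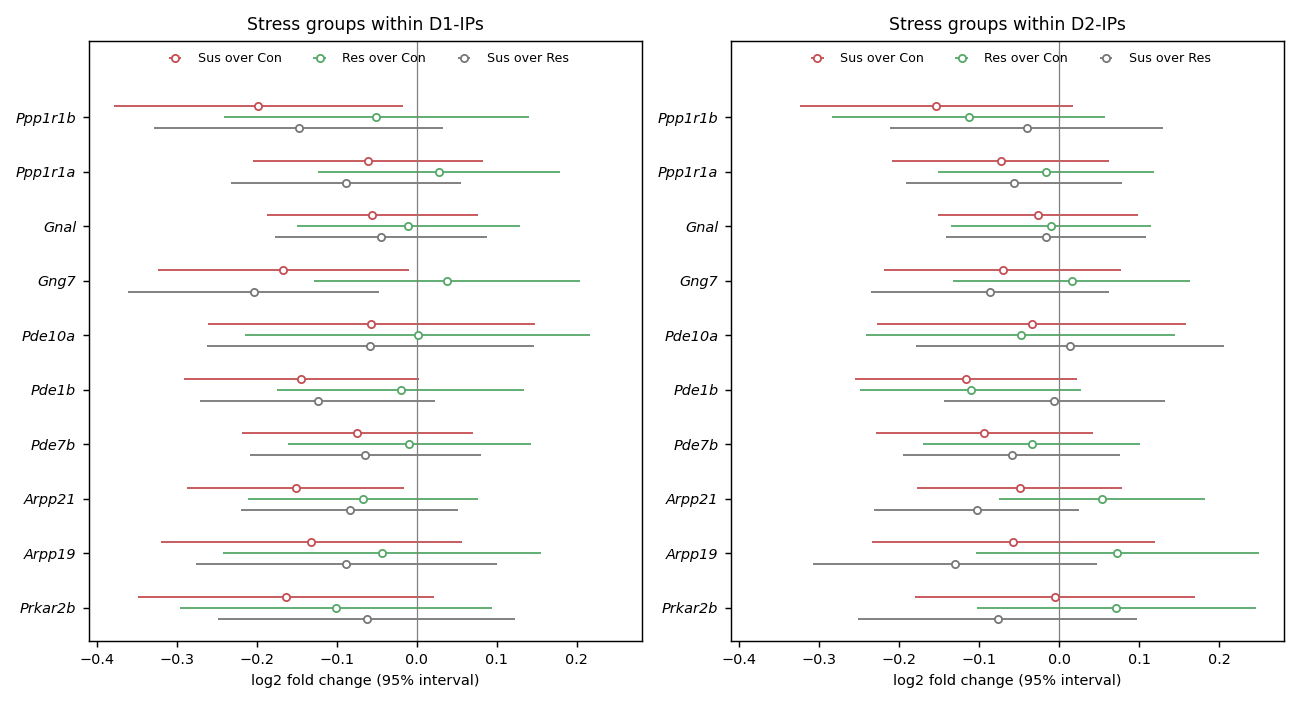
log2 fold changes with 95% intervals (x axes) of the 10 members between stress groups within D1-IPs (left) and D2-IPs (right); open points did not pass an adjusted p of 0.05. All points are open, and the interval of Ppp1r1b for Sus over Con in D1-IPs runs from -0.38 to -0.02.

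Whether stress differences differed between the lines was tested directly as an interaction. For Sus against Con, Res against Con and Sus against Res, 0 members were called and 0%, 0% and 0% of 14224 genes were, by edgeR as by DESeq2. At an unadjusted p below 0.05 there were 259, 335 and 289 genes but 0 members. In the inputs of both lines together, Sus against Con, Res against Con and Sus against Res also called 0 members and 0%, 0% and 0% of genes by edgeR (663, 478 and 821 genes at an unadjusted p below 0.05), while DESeq2 called 3, 1 and 0 genes, none of them a member.

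Across the D1-IPs most members varied with Ppp1r1b, and across the D2-IPs fewer did; the difference between the lines was not tested. Levels were log2 CPM with a prior count of 2, and 18 relations with Ppp1r1b were computed, with p-values from permutation tests adjusted over them. In the 13 D1-IPs, 6 members had an adjusted p below 0.05 by Pearson's r. The closest was Pde1b (r = 0.95, permutation p = 3e-05, adjusted 0.000135; rho = 0.76, permutation p = 0.00359), followed by Arpp21 (r = 0.91), Pde10a (0.90), Pde7b (0.90), Gnal (0.90) and Gng7 (0.86). Leaving out the libraries of highest and lowest Ppp1r1b, D1 Con 1 and D1 Sus 3, lowered r to between 0.75 for Gnal and 0.84 for Gng7. Ppp1r1a (r = 0.44), Arpp19 (0.50) and Prkar2b (0.33) did not pass by Pearson's r. By rank the same 6 members and Ppp1r1a passed (rho = 0.71 for Ppp1r1a, adjusted permutation p = 0.017).

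In the 15 D2-IPs only Pde1b (r = 0.85, adjusted permutation p = 6e-05; rho = 0.80) and Ppp1r1a (r = 0.82, adjusted permutation p = 0.000832; rho = 0.81) passed by Pearson's r. Both held without the libraries farthest from the median, at 0.77 and 0.83. Pde10a went from r = 0.41 to -0.20 and Gnal from 0.39 to 0.08 when those libraries were left out, so these relations rested on them. By rank Gng7 (rho = 0.59, adjusted permutation p = 0.0434) and Pde7b (rho = 0.58, adjusted permutation p = 0.0452) passed as well. Libraries of all 3 stress groups entered each value.

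Among 11766 genes averaging 50 counts or more in the IPs, the 5 whose levels followed Ppp1r1b most closely, by the mean of r over D1-IPs (n = 13) and r over D2-IPs (n = 15), were Dbndd2 (0.93), Rasgrp2 (0.91), the member Pde1b (0.90), Rasd2 (0.90) and Penk (0.89). Penk, the enkephalin precursor and a marker of D2-MSNs, averaged 2112 CPM in D1-IPs and 5563 in D2-IPs. The ranks of the other members in this order ran from 125 for Arpp21 and 127 for Gng7 to 1736 for Arpp19 and 4291 for Prkar2b. These are descriptions of likeness over shared libraries.

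The cortical marker sum moved with several of these genes in D1-IPs. Over the 13 libraries, 9 of 10 members had a negative r with the log2 sum, and 6 had an adjusted permutation p below 0.05 among 20 relations. Over the 14224 genes tested, 50.4% had a negative r, and 2.1% had one at or below -0.72, that of Gng7, the weakest of these 6 members. The median r was -0.74 over the members and -0.0040 over those genes. Pde1b gave r = -0.87 (permutation p = 0.00036, adjusted 0.0072; rho = -0.72, permutation p = 0.0072), and Ppp1r1b gave r = -0.77 (permutation p = 0.00328, adjusted 0.0142; rho = -0.42, permutation p = 0.158). Without the libraries farthest from the median of the sum, r was -0.63 for Pde1b and -0.31 for Ppp1r1b, and no rho passed its adjusted p. Arpp19 (-0.20), Prkar2b (-0.11) and Ppp1r1a (0.06) had the weakest relations. In D2-IPs, where the sum was lower, r lay between 0.04 and 0.55 and 0 relations passed. All values are TMM-scaled CPM, so they are levels relative to the rest of a library and not amounts per cell.

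**Figure D4:**
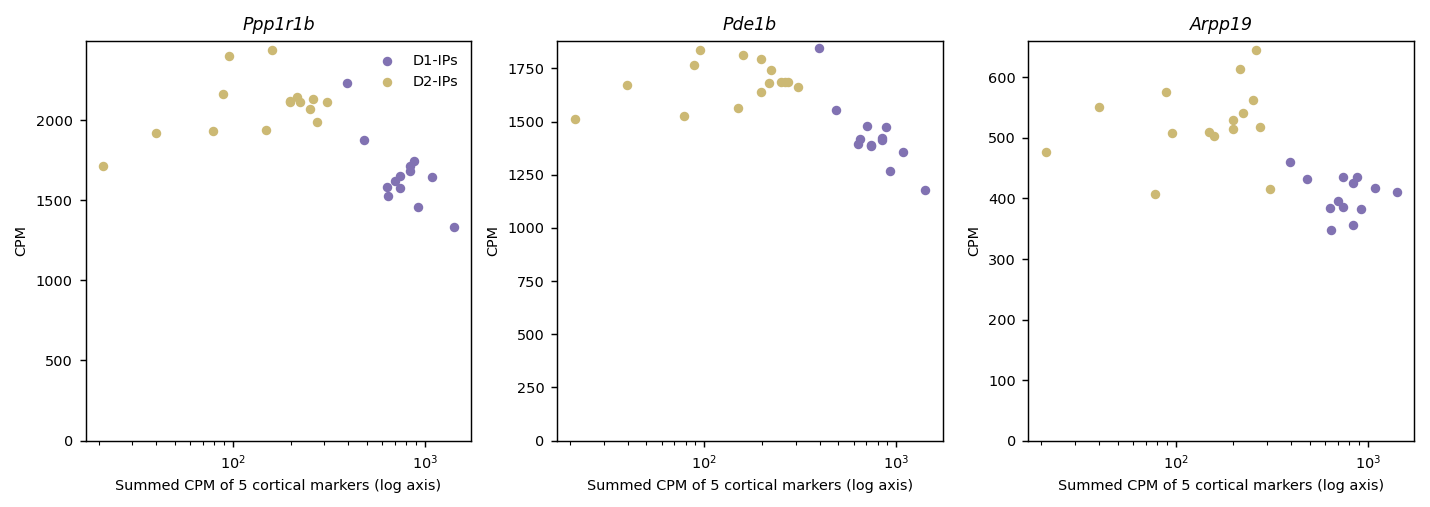
CPM of Ppp1r1b, Pde1b and Arpp19 (y axes, from 0) against the summed CPM of 5 cortical markers (x axes, log scale) in 13 D1-IPs and 15 D2-IPs; each point is a library. D1-IPs lie at 395 CPM of the markers and above and D2-IPs at 309 and below, and Pde1b falls with the sum among D1-IPs (r = -0.87).

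In the libraries labelled Sirt1-KO the targeted gene was examined first. Sirt1, a deacetylase, was at 13.1, 16.6, 14.8 and 14.3 CPM in D1 Con and at 15.1, 16.2, 13.2 and 10.2 in the libraries labelled Sirt1-KO 1, 3, 4 and 5. The groups overlapped, and the log2 fold change was -0.10 (95% interval -0.39 to 0.19, adjusted p = 0.768). The count covers the whole gene, and which part the floxed allele loses is not in the labels, so a count of this kind need not show the deletion. CPM here were scaled over the 8 libraries of this comparison, so D1 Con values differ from those above.

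No member was called between the libraries labelled Sirt1-KO and D1 Con, but most leaned lower. These groups were deposited at different times, so any batch and the genotype cannot be told apart. Of 13626 genes, 0.616% were called higher and 1.04% lower by edgeR (226 in all, 2352 at an unadjusted p below 0.05). Estimates below 0 with an unadjusted p below 0.05 were found for 9 of 10 members, against 8.11% of genes, and the members' median was -0.27. DESeq2 called 3 members among 741 genes: Pde10a, Arpp19 and Prkar2b.

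Arpp19 came closest, at 430, 390, 409 and 360 CPM in D1 Con and at 359.7, 317, 319 and 297 in the libraries labelled Sirt1-KO, with a log2 fold change of -0.30 ± 0.0696 (adjusted p = 0.0585). Prkar2b, at 245, 255, 265 and 240 CPM against 223, 233, 207 and 195, was at -0.22 ± 0.0624 (adjusted p = 0.0915). In both genes every library labelled Sirt1-KO lay below every D1 Con library, as in 5.26% of genes. Ppp1r1a had the opposite order, as 4.24% of genes did, with 57.4, 57.6, 51.7 and 57.9 CPM in D1 Con and 59.0, 58.1, 58.1 and 67.0 in the libraries labelled Sirt1-KO, at 0.11 ± 0.0676 (adjusted p = 0.435).

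For the other 7 members 3 of the libraries labelled Sirt1-KO lay below every D1 Con library, and Sirt1-KO 5, the highest with that label, did not. Ppp1r1b was at 2085, 1538, 1483 and 1541 CPM in D1 Con, and at 1337, 1104, 1148 and 1707 in the libraries labelled Sirt1-KO 1, 3, 4 and 5. The first 3 of these lay below all D1 Con libraries, and the last lay among them (log2 fold change -0.32 ± 0.143, adjusted p = 0.27). Gng7 showed the same, with 976, 867, 770 and 903 CPM against 693, 653, 655 and 931. Without Sirt1-KO 5, 8 members were called lower (1020 genes in all), among them Ppp1r1b (-0.48, adjusted p = 0.0281), Pde10a (-0.54, adjusted p = 0.0104) and Gng7 (-0.40, adjusted p = 0.0113). Prkar2b and Ppp1r1a were not. Leaving out Sirt1-KO 1 called Arpp19 alone (107 genes in all), and leaving out any of the other libraries called 0 members.

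The cortical sum varied among these libraries too. It was 369, 1018, 698 and 694 CPM in D1 Con and 1239, 1468, 1594 and 824 in the libraries labelled Sirt1-KO 1, 3, 4 and 5, so that the library labelled Sirt1-KO with the most Ppp1r1b and Gng7 also had the lowest sum of the 4, below that of D1 Con 2. None of the 5 cortical markers was called (median log2 fold change 0.89). With the sum as a covariate, added after seeing the data, 0 members were called, and their median went from -0.27 to 0.0074. Sirt1-KO 1, 3 and 4 lay above every D1 Con library in the sum, so label and sum largely go together in this fit. It cannot say which of them the members follow. Ppp1r1b was then at 0.07, Arpp19 at -0.25 (adjusted p = 0.287) and Prkar2b at -0.30 (adjusted p = 0.154). Of the D1-MSN markers, 2 of 5 were called lower (1216 to 1500 CPM summed in D1 Con and 915 to 1131 in the libraries labelled Sirt1-KO), as was 1 of 5 cholinergic markers, while 2 of 6 markers of GABA interneurons were called higher, and their part was not tested.

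**Figure D5:**
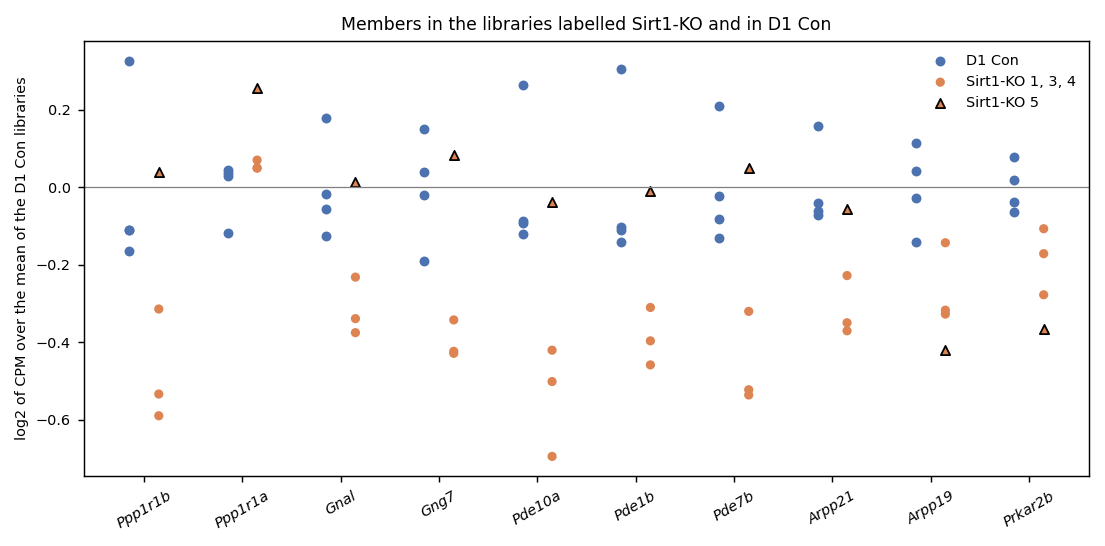
log2 of the CPM of each member over its mean in the 4 D1 Con libraries (y axis) for D1 Con and the libraries labelled Sirt1-KO (x axis, by gene), with Sirt1-KO 5 as a triangle. For Ppp1r1b, 3 of the libraries labelled Sirt1-KO lie below all D1 Con libraries and Sirt1-KO 5 (1707 CPM) lies among them, while for Arpp19 and Prkar2b all 4 lie below.

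The rest of the pathway was taken from 6 lists of 87 genes, of which 86 were tested among the IPs. Averaged over the stress groups, 18 of these were called higher and 27 lower in D1-IPs, and 41 were not called. Over all genes tested, 19.6% were called higher and 21.3% lower. In the list of other G protein subunits 10 of 19 genes were higher and 4 lower (median 0.20), whereas Gnal and Gng7 were lower. That list also held Ric8b, which is not a subunit, at 117 to 163 CPM in D1-IPs and 155 to 176 in D2-IPs. Gnb4, a beta subunit, was higher at 0.92 ± 0.0464 (adjusted p = 1.96e-15), with 106 to 143 CPM in D1-IPs and 56.2 to 80.2 in D2-IPs. The gamma subunit Gng11 was higher at 0.88 (adjusted p = 0.0378) but at 0.04 to 1.03 CPM throughout the IPs, and it lost its call without any 1 of 10 single libraries.

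Regulators and anchors of PKA went both ways, with 3 of 18 higher and 6 lower. Pkib, which encodes an inhibitor peptide of PKA, had the largest difference of the listed genes, at 1.53 ± 0.141 (adjusted p = 7.11e-10), though its level was low (2.05 to 4.70 CPM in D1-IPs and 0.54 to 1.53 in D2-IPs). The anchors Akap8 (-0.51, adjusted p = 4.57e-07) and Akap9 (-0.51, adjusted p = 2.49e-07) were lower. Among 16 other phosphodiesterases 4 were higher and 5 lower, and Pde4b, specific for cAMP, was lower at -0.52 ± 0.0365 (adjusted p = 3.56e-12), with 194 to 246 CPM in D1-IPs and 277 to 345 in D2-IPs. PP1 and its regulators had 0 of 6 higher and 4 lower (median -0.12). The list of phosphatases and kinases that act on DARPP-32 or the ARPPs had 1 of 17 genes higher and 5 lower (median 0.01). That list also held Ensa, which is neither a phosphatase nor a kinase, and the tyrosine phosphatase Ptpn5. Other cAMP effectors had 0 of 10 higher and 3 lower (median -0.06). Of all genes, 21.3% were called lower.

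Against inputs, 48 of 86 listed genes were higher and 28 lower in D1-IPs, and 48 were higher and 30 lower in D2-IPs. Over all genes tested, 39.2% were higher and 42.7% lower in D1-IPs, and 37.8% were higher and 44.9% lower in D2-IPs. In the list of phosphatases and kinases that act on DARPP-32 or the ARPPs, with Ensa and Ptpn5 included, 16 of 17 genes were higher in both lines. The other 1 was lower. Of PP1 and its regulators 5 of 6 were higher in D1-IPs and 6 of 6 in D2-IPs, with 0 lower. Ppp3ca, the catalytic subunit of calcineurin, which removes the phosphate that PKA puts on DARPP-32, was higher at 1.42 ± 0.0549 in D1-IPs and 1.68 ± 0.0545 in D2-IPs (adjusted p = 3.28e-25 and 7.32e-28). Gnb5 (1.07 and 1.57) and Gnb2 (0.98 and 1.17) were higher as well. Pde8a was lower in IPs at -3.39 and -3.30, with 16.3 to 24.6 CPM in inputs. No listed gene was called in any stress comparison or interaction. Between the libraries labelled Sirt1-KO and D1 Con, 0 of 85 were higher and 3 lower, beside 0.616% and 1.04% of all genes. The 3 were Pde1c (-0.60, adjusted p = 0.0366), the PKA inhibitor gene Pkia (-0.36, adjusted p = 0.0386) and Ppp1r2 (-0.29, adjusted p = 0.0367). None of these remained called with the cortical covariate (-0.27, -0.45 and -0.21, adjusted p from 0.0753 to 0.272). Each also lost its call without any 1 of D1 Con 1, 3 or 4 or Sirt1-KO 3 or 4 (adjusted p from 0.0592 to 0.14).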

How the data were processed

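Per the labels, poly-A libraries from a stranded kit were sequenced on an Illumina NextSeq500, and the submitters' processing notes name cutadapt, FastQC, STAR, HTSeq, DESeq2, HOMER and mm10; versions and the strand setting of counting are not given in the sources used here. The authors deposited raw read counts per gene for 24552 genes: 1 table of 46 IPs and inputs and 1 of the Sirt1-KO comparison with 4 further libraries, in which the D1 Con columns were identical to those of the first. A total of 2 columns matched no sample and were not used. Library sizes and tests do not include the 5 entries that name no gene (18.0% to 24.5% of counts in D1-IPs, 18.6% to 28.3% in D2-IPs, 35.9% to 40.0% in inputs, 19.2% to 23.8% in the libraries labelled Sirt1-KO). For the Sirt1-KO comparison, 5 symbols were listed 2 times. Depth of the libraries labelled Sirt1-KO was 22174187 to 31785984 counts.

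Genes were kept with edgeR's filterByExpr (minimum count 10, minimum total 15), scaled by TMM and tested with edgeR 4.0.16 quasi-likelihood F tests in R 4.3.3, 1 model for IPs, 1 for inputs, 1 for both and 1 for the Sirt1-KO table, with Benjamini-Hochberg adjustment over all genes tested. Correlations used 100000 permutations, 2-sided. Scripts were tested on simulated data. Alternatives were DESeq2 1.42.0, RLE scaling, other filters, fold and p thresholds, a model of the compared libraries alone, a block for the replicate number, leaving out each library, and, chosen after seeing the data, the cortical marker level as a covariate. Between IPs and inputs, the block was the replicate number within each line and stress group. Each library pooled 2 mice, and p-values measure the spread between these libraries. No pair of replicates was a duplicate (chi-square per gene of 3.60 or more over 70 pairs).

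The members, pathway lists and markers were chosen with earlier results of these data known. By rule, the text names all members, up to 3 other listed genes called in each direction with the largest fold in a comparison, the 5 genes most like Ppp1r1b, and Sirt1. Ric8b, Ensa and Ptpn5 are named as well for their place in a list. A gene of the cortical marker list is not reported here, and its values entered no sum or covariate. Positions and coding sequence came from GENCODE M21 (mm10), and promoters and the miRNA from RefSeq. Figures were drawn with matplotlib 3.10.9.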

Additional observations from a re-analysis of the deposited data

Results flagged for a closer look

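Of 70 sets of 4 or 5 libraries (1 gene in 1 group), 12 held a library that stood apart by Dixon's test at the 95% level, which chance gives in about 5% of sets. D1 Con 1 stood apart for 4 members: it held 2229 CPM of Ppp1r1b (others 1578 to 1650), 1425 of Pde10a (others 1093 to 1121), 1847 of Pde1b (others 1355 to 1388) and 1452 of Arpp21 (others up to 1260.03). D1 Res 1 was low for Arpp19 (348 CPM, others 425 to 435) and Prkar2b (207 CPM, others 258 to 266). Sirt1-KO 5 was high for Gng7 (931 CPM, others 653 to 693) and Ppp1r1a (67.0 CPM, others 58.1 to 59.0). The other 4 were Ppp1r1a in D1 Con 3 (55.1 CPM, others 61.3 to 62.0), Gng7 in D2 Res 1 (1439 CPM, others 1137 to 1192), Arpp19 in D2 Con 4 (576 CPM, others 503 to 518) and Arpp21 in D2 Sus 1 (1314 CPM, others 1463 to 1519). The sets are not independent, since members share libraries.

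For 8 members the enrichment over input differed between the lines by the test of the difference itself (log2 fold change in D1 minus that in D2, edgeR, adjusted p up to 0.000426): Ppp1r1b at -0.45, Gnal at -0.29, Gng7 at -0.54, Pde10a at -0.57, Pde1b at -0.40, Pde7b at -0.51, Arpp21 at -0.41 and Arpp19 at -0.45.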

How the results depend on the processing

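Of 5986 values of members and listed genes under the alternatives, 5878 kept their side of the threshold, 68 lost their call and 40 gained one. A total of 184 changed sign, all of them called neither before nor after, such as Ppp1r1b in the Sirt1-KO comparison with the cortical covariate (-0.32 to 0.07) and Pde10a in D1 Sus against Con without D1 Con 1 (-0.06 to 0.05). With a fold over 1.5 required, 0 members were called between D1-IPs and D2-IPs in Con, Res, Sus or their mean, or for the difference in enrichment. At an unadjusted p below 0.05, 3 members passed in D1 Sus against Con, 1 in D1 Sus against Res, 3 between the input lines and 9 in the Sirt1-KO comparison. In that comparison, where 0 members were called, DESeq2 called 3 (adjusted p 0.049 for Pde10a, 0.0059 for Arpp19, 0.0293 for Prkar2b) and keeping every gene with at least 1 count called 1 (Arpp19, 0.0412). Its share of higher calls among all genes was 37.2%, and 48.9% by DESeq2; the cause was not tested.

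The labels do not tie equal replicate numbers to a shared batch, and in no set of pairs was every correlation of deviations above 0.1. These ran from -0.10 to 0.21 for IPs of unlike lines, from -0.10 to 0.25 for IPs of 1 line in unlike stress groups, from -0.19 to 0.51 for IP and input, and from -0.008 to 0.077 in the Sirt1-KO comparison. Across the lines, 13 of 26 IPs correlated best with their own number. The same held for 16 of 36 libraries between IP and input and for 5 of 6 in the Sirt1-KO comparison. Whether these counts exceed what unrelated numbers would give was not tested. Number 5 had the highest share of counts that name no gene in D1 Sus (24.5%), D2 Res (27.2%), D2 Sus (28.3%) and Sirt1-KO (23.8%). With the replicate block, 8 members were called in Con (2261 genes in all against 1990), 8 in Res (2866 against 2487), 9 in Sus (3165 against 2497), 9 in their mean (5991 against 5805), 9 for the difference in enrichment (3674 against 3924), 0 in the stress comparisons, and 8 in the Sirt1-KO comparison (1689 against 226, 58.5% higher). The member gained between the lines was Prkar2b: in Res (adjusted p = 0.00608), Sus (0.046), their mean (-0.15, adjusted p = 0.000727) and the difference in enrichment (0.0376). For that difference the block had a term for each line, stress group and number together. An IP without an input of its number was then fitted exactly, so the value rests on IPs and inputs that share a number. In the Sirt1-KO comparison D1 Con 2 and Sirt1-KO 5 share their numbers with no other library. The block fitted these libraries exactly, so its 8 calls there rest on the remaining libraries. Leaving out Sirt1-KO 5 alone also gave 8 calls.

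Leaving out single libraries gave 3 to 8 members called in Con, 5 to 8 in Res, 8 to 8 in Sus, 8 to 9 in their mean, 9 to 10 in D1 enrichment, 0 to 8 in the Sirt1-KO comparison and 0 to 0 in stress comparisons and inputs. With the cortical covariate, chosen after seeing the data, the counts of all genes called fell from 1990 to 1297 in Con, 2487 to 1540 in Res, 2497 to 1412 in Sus, 5805 to 2700 in their mean and 226 to 37 in the Sirt1-KO comparison, and the members called in the mean went from 8 to 9. Between D1-IPs and D2-IPs, line and the cortical sum cannot be told apart in these fits. In the Sirt1-KO comparison label and sum largely go together, since only Sirt1-KO 5 lay within the range of D1 Con. With only the compared libraries, the share of higher calls in Sus went from 54% to 63.9%, and with RLE scaling that of the enrichment difference from 53.7% to 46.9%. Groups of 3 to 5 pooled libraries and no cohort labels limit every stress comparison.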
